A study of Mus musculus with 24 samples.

Results

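Hippocampal messenger RNA was compared between 3xTg-AD mice (3xTg) and B6129SF2/J mice (WT) that had all eaten a ketogenic diet. The comparison uses 9 of the 24 libraries of the series, 5 from 3xTg and 4 from WT mice, taken by the genotype and diet in their labels. All mice were female. They were 3 months old when the diet began and ate it for 6 months, and each library came from 1 hippocampus. The ketogenic diet held no carbohydrate, 90% long-chain triglycerides and 10% protein at 6.7 kcal per g. The other libraries came from the same strains on a control diet of 70% carbohydrate, 20% long-chain triglycerides and 10% protein (3 3xTg and 4 WT), or on a diet in which 10% medium-chain triglycerides (MCT) replaced part of the long-chain ones (4 3xTg and 4 WT). They enter here as a repeat of the strain contrast in other mice. Libraries are named by strain, diet (K ketogenic, C control, M MCT) and replicate.

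The 3xTg line is a model of Alzheimer's disease in which human APP and MAPT carrying disease mutations are expressed from Thy1 cassettes, active mainly in neurons. Cleavage of APP gives amyloid-β, and MAPT encodes the microtubule protein tau. The B6129SF2/J strain is a hybrid of C57BL/6 and 129 mice that shares part of the ancestry of the 3xTg line but not its breeding, so effects of the transgenes and of other strain differences cannot be told apart in any 3xTg against WT contrast given here. A ketogenic diet withholds carbohydrate, so that the liver turns fatty acids into ketone bodies, which the brain takes up through monocarboxylate transporters and oxidises in place of part of its glucose.

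Thy1 was read first, because reads from the Thy1 cassette of the transgenes can be assigned to the mouse gene (chr9:44043384-44048579 on GRCm38, protein-coding). Thy1 had 8112, 24244, 23186, 20385 and 29277 normalised counts in the 5 3xTg libraries, in replicate order, and 7893, 7611, 7139.8 and 7553 in the 4 WT libraries. 3xTg_K_1 thus lay with the WT libraries and below 15000, the level used here to tell a 3xTg from a WT library and chosen with these values known, while the other 4 3xTg libraries lay well above it. App, the mouse gene of the amyloid precursor, had 23019.5, 30526, 31555, 29473 and 37175 normalised counts in the 3xTg libraries and 24594, 24004, 21293 and 22942 in the WT libraries, and 3xTg_K_1 was again within the WT range. On the first principal component of all 24 libraries, which held 22.8% of the variance, 3xTg_K_1 scored 11.7, the other 3xTg ketogenic libraries -42.2 to -11.2 and the WT ketogenic libraries 12.6 to 19.5. The library labelled 3xTg_K_1 therefore goes against its label in Thy1 and App, and so do 1 control-diet library labelled 3xTg and 1 MCT library labelled WT. Results are given both with all 24 libraries as labelled and with the 21 libraries left after these 3 were dropped, and no library was given another label. Because Thy1 chose the dropped libraries, the values of Thy1 and App without them are a description.

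3xTg_K_2 was shallow, with 2.65 M reads assigned to genes, against 12.2 to 14.9 M in the other 3xTg and 10.5 to 14.9 M in the WT ketogenic libraries. A single read in it is worth 5.40 normalised counts, so its values for weakly expressed genes are coarse, and a count of 0 in it allows up to 16.2. Mapt, the mouse tau gene, was not called in either fit. It had 6445, 7628, 7701, 7221 and 8218 normalised counts in the 3xTg libraries and 7507, 7759, 6516 and 6705 in the WT libraries (log2 difference over 21 libraries 0.11 ± 0.06, adjusted p = 0.298, where ± gives the standard error).

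**Figure D1:**
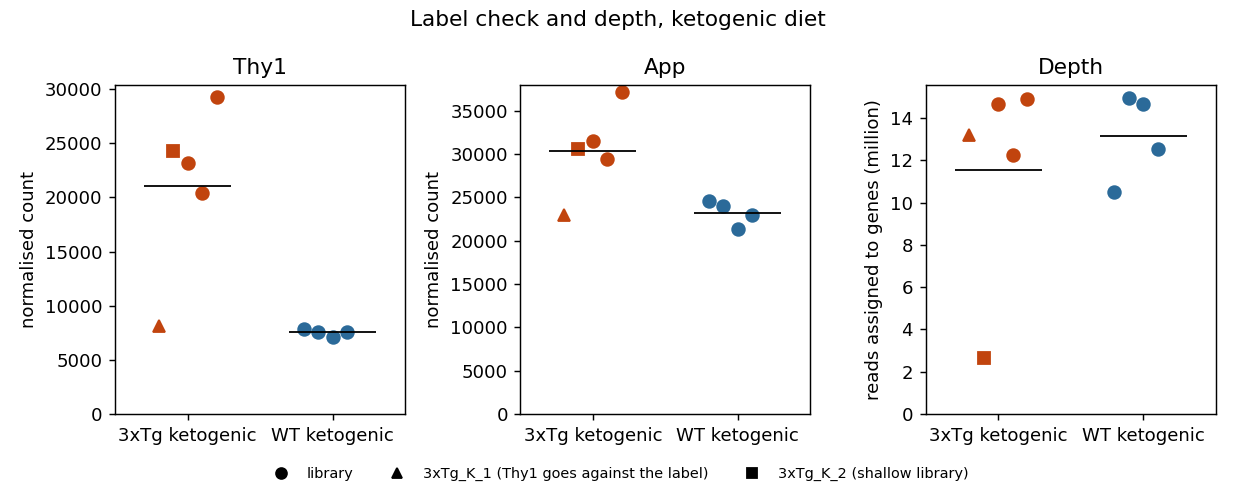
Normalised counts of Thy1 and App and reads assigned to genes (M) in the 5 3xTg and 4 WT ketogenic libraries, with 1 point per library and a line at the group mean. The library 3xTg_K_1 (triangle) has 8112 Thy1 counts, beside the WT libraries, and 3xTg_K_2 (square) has 2.65 M reads.

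With every library as labelled, 22 of 14162 genes passed the test, which is 0.155% of those tested, 9 higher in 3xTg (0.0636%) and 13 lower (0.0918%). Log2(normalised count + 1) was tested with limma, p-values were two-sided and adjusted by the Benjamini-Hochberg method over every gene tested, and genes with an adjusted p under 0.05 are said to be called. Without adjustment, 2073 genes had a p under 0.05. With quantile normalisation the split was 18 higher and 14 lower. The ranges of both groups were separate for all 22 called genes, against 609 genes (4.3%) among those tested. In 16 of the 22, 3xTg_K_1 lay nearer the mean of the other 3xTg libraries than that of WT. These genes were called with 3xTg_K_1 counted as 3xTg, which favours genes where it lies with that group and the ranges are separate. Neither count therefore bears on the label of 3xTg_K_1.

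The 13 genes that fell as labelled included Lct, Adcy1, Rph3a and Btbd3. Lct, which encodes lactase and marks dentate granule cells in the mouse hippocampus, had 511, 459, 485, 439 and 360.4 normalised counts in the 3xTg libraries and 758, 731, 1009.6 and 1068 in the WT libraries. Every 3xTg value was below every WT value (log2 difference as labelled -0.97 ± 0.17, adjusted p = 0.0262). Adcy1, the adenylyl cyclase stimulated by calcium and calmodulin, had 15522, 16908, 14961, 14662 and 16165 in the 3xTg libraries and 19163, 19408, 21462 and 24587 in the WT libraries (-0.43 ± 0.08, adjusted p = 0.0337). The WT libraries were spread more widely than the 3xTg libraries, and 3xTg_K_1 sat inside the range of the other 3xTg libraries. Rph3a, a Rab3 effector on synaptic vesicles, had 3288, 3171, 3216, 3063 and 3129 in 3xTg and 4216, 3742, 3957 and 4226 in WT libraries (-0.34 ± 0.06, adjusted p = 0.0167). Btbd3, which orients dendrites toward active inputs, had 4087, 4186, 3932, 4311 and 4141 in 3xTg and 4778, 5072, 5413 and 5737 in WT libraries (-0.34 ± 0.06, adjusted p = 0.0167). The lowest WT value of Btbd3 exceeded the highest 3xTg value. The synaptic vesicle protein Sv2c fell by 0.66 on the log2 scale, the inward rectifier Kcnj2 by 0.63, the corepressor Tle1 by 0.57, Fam163b by 0.52, the zinc finger gene Zfp983 by 0.78 and the B-cell adaptor Blnk by 0.97, with adjusted p between 0.0337 and 0.0484. The phospholipase Pla2g4e fell by 2.71 and the oxidoreductase Pyroxd2 by 1.83, and these 2 are described further below.

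The genes that rose as labelled were mostly shifted by less than 2-fold. H2-T22, a non-classical MHC class I gene, had 134, 184, 143, 182 and 169 normalised counts in the 3xTg libraries and 98.8, 123, 84.5 and 72.3 in the WT libraries (0.79 ± 0.15, adjusted p = 0.0337). All 5 3xTg libraries were above the highest WT library. Chrm5, the M5 muscarinic acetylcholine receptor, had 64.6, 86.4, 70.2, 62.3 and 68.2 in 3xTg and 46.7, 44.5, 35.9 and 37.9 in WT libraries (0.76 ± 0.16, adjusted p = 0.0484). Sc5d, the sterol desaturase that makes 7-dehydrocholesterol, had 1561, 1685, 1625, 1679.8 and 1650.0 in 3xTg and 1321, 1423, 1529 and 1318 in WT libraries (0.23 ± 0.04, adjusted p = 0.0337), a small shift between narrow groups. Ikbkg, the regulatory subunit NEMO of the kinase that activates NF-κB, rose by 0.28, the DNA-repair nuclease Dclre1c by 0.69, the ciliary cargo regulator Lztfl1 by 0.65, Ccdc148 by 0.34 and the Golgi GTPase Arl5a by 0.26 on the log2 scale, with adjusted p between 0.0351 and 0.0484. These calls were fragile: 0 genes were called when 3xTg_K_3, 3xTg_K_5 or WT_K_4 was left out, 1 without WT_K_3, 2 without 3xTg_K_4, 6 without 3xTg_K_2 and 10 without WT_K_1, while 325 were called without 3xTg_K_1.

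With the 3 libraries whose Thy1 went against the label left out, 511 of 14126 genes passed (3.62%), 249 higher in 3xTg (1.76%) and 262 lower (1.85%). All 22 genes called as labelled were among them, in the same direction. Of the 511, 118 differed by more than 2-fold and 301 by less than 1.5-fold. The 4 remaining 3xTg libraries and the 4 WT libraries did not overlap in 457 of them, against 1270 (8.99%) of all genes tested. 3xTg_K_1, which took no part in this fit, lay nearer the WT mean in 377 of the 511 called genes and nearer the 3xTg mean in 134. The same count was not made over all genes tested, so these numbers have no background. Without the shallow 3xTg_K_2 as well, 305 genes were called, and 325 were called when 3xTg_K_1 was the sole library left out of the 24.

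**Figure D2:**
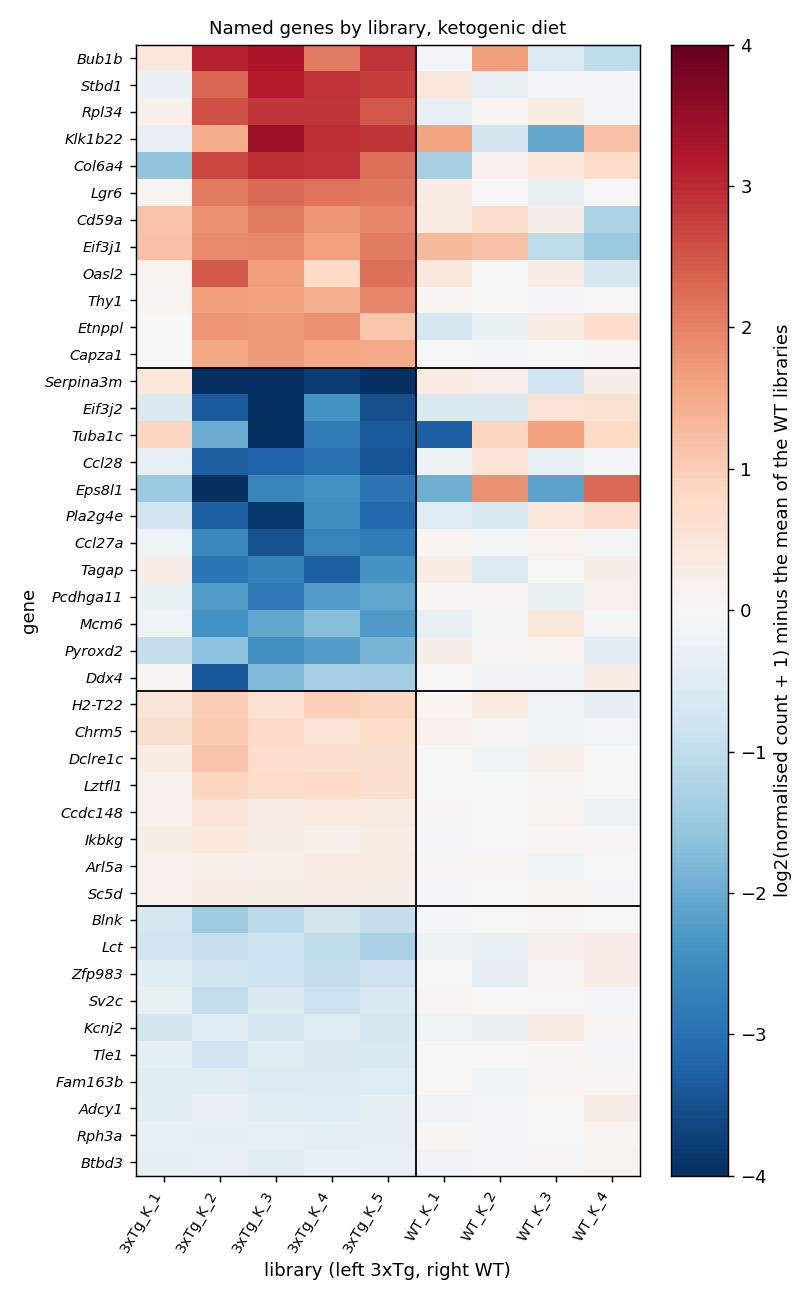
Log2(normalised count + 1) minus the mean of the 4 WT libraries for the named genes (rows, in blocks of rises and falls without the 3 libraries, then rises and falls as labelled) in the 9 ketogenic libraries (columns, 3xTg left, WT right). Red is higher and blue lower than WT, and 3xTg_K_1 has pale cells in most rows of the upper 2 blocks, where 3xTg_K_2 to 3xTg_K_5 are dark.

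The largest rises without these libraries were in genes of unrelated function. In what follows each bracket gives the log2 difference with its standard error and adjusted p over 21 libraries, then the values as labelled. Stbd1, which tethers glycogen to membranes for its breakdown in lysosomes, had 19.7, 124, 218, 185 and 167 normalised counts in the 3xTg libraries and 32.9, 19.3, 22.3 and 22.96 in the WT libraries (log2 difference 2.78 ± 0.41, adjusted p = 0.00017, and 2.17 with adjusted p = 0.12 as labelled). 3xTg_K_1 was at the WT level and the other 3xTg libraries were far above it. Lgr6, a receptor for R-spondins that strengthens Wnt signalling, had 66.8, 265, 302, 280.0 and 267 in the 3xTg libraries and 76.9, 60.9, 50.5 and 60.8 in the WT libraries (log2 difference 2.16 ± 0.14, adjusted p = 7.5e-10, and 1.75 with adjusted p = 0.0864 as labelled). The 4 high libraries differed little among themselves. Capza1, a subunit of the actin capping protein, had 51.5, 151, 171, 154 and 149 in the 3xTg libraries and 50.8, 50.3, 52.4 and 52.8 in the WT libraries (log2 difference 1.58 ± 0.22, adjusted p = 8.45e-05, and 1.26 with adjusted p = 0.078 as labelled). The WT values spanned a few counts, and 3xTg_K_1 fell inside them. Etnppl, an astrocyte enzyme that breaks down phosphoethanolamine, had 138, 470.0, 453, 492 and 295 in 3xTg and 83.7, 113, 169 and 224 in WT libraries (log2 difference 1.60 ± 0.25, adjusted p = 0.000331, and 1.28 with adjusted p = 0.0772 as labelled). Rpl34, a protein of the large ribosomal subunit with processed pseudogenes, had 64.6, 335, 411, 407 and 317 in 3xTg and 43.9, 58.96, 67.95 and 53.96 in WT libraries (log2 difference 2.70 ± 0.33, adjusted p = 1.67e-05, and 2.20 with adjusted p = 0.0568 as labelled), and its reads may be shared with those copies. Col6a4, a collagen VI chain, had 2.19, 59.4, 73.1, 69.4 and 42.3 in 3xTg and 2.75, 9.67, 11.6 and 14.9 in WT libraries (log2 difference 2.68 ± 0.39, adjusted p = 0.000169, and 1.83 with adjusted p = 0.24 as labelled). Bub1b, a kinase of the spindle checkpoint, had 14.2, 97.2, 108, 47.1 and 81.7 in 3xTg and 9.61, 34.8, 6.80 and 4.59 in WT libraries (log2 difference 2.83 ± 0.60, adjusted p = 0.00759, and 2.35 with adjusted p = 0.111 as labelled), with the WT library WT_K_2 well above the other 3. The kallikrein Klk1b22, a member of a family of near-identical genes, had 21.6 to 87.7 in 3xTg_K_2 to 3xTg_K_5, 5.47 in 3xTg_K_1 and 0.971 to 23.3 in WT libraries (log2 difference 2.69 ± 0.62, adjusted p = 0.0138, and 2.09 with adjusted p = 0.207 as labelled). Its adjusted p reached 0.0534 when 3xTg_K_3 or WT_K_2 was left out.

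The largest falls included a protease inhibitor and 2 chemokines. Serpina3m, a member of the mouse Serpina3 cluster of protease inhibitors, had 79.9, 0, 1.95, 3.53 and 1.92 normalised counts in the 3xTg libraries and 76.9, 68.6, 34.9 and 70.03 in the WT libraries (log2 difference -4.61 ± 0.42, adjusted p = 2.27e-07, and -3.61 with adjusted p = 0.147 as labelled). It was close to absent in 3xTg_K_2 to 3xTg_K_5 and at the WT level in 3xTg_K_1. Its close relative Serpina3n, which reactive astrocytes and oligodendrocytes make, had 3805, 1097, 887, 1233 and 767 in 3xTg and 3179.6, 3889, 2306 and 3778 in WT libraries (log2 difference -1.72 ± 0.19, adjusted p = 5.68e-06, and -1.33 with adjusted p = 0.164 as labelled). Because the cluster arose by duplication, reads may be shared between the pair. Ccl28, a chemokine of mucosal tissues, had 49.3, 5.40, 5.85, 7.06 and 4.80 in 3xTg and 53.5, 91.8, 51.4 and 59.7 in WT libraries (log2 difference -3.24 ± 0.40, adjusted p = 2.19e-05, and -2.65 with adjusted p = 0.114 as labelled), and the value in 3xTg_K_2 is a single read. Ccl27a, a chemokine with several near-identical copies, had 233, 43.2, 22.4, 39.996 and 36.5 in 3xTg and 273, 246, 287 and 239.9 in WT libraries (log2 difference -2.88 ± 0.21, adjusted p = 3.66e-09, and -2.34 with adjusted p = 0.133 as labelled). For both chemokines 3xTg_K_1 was the sole high 3xTg library. Tagap, a GTPase-activating protein known from T cells, had 106, 10.8, 12.7, 8.23 and 16.3 in 3xTg and 108, 59.9, 87.4 and 104 in WT libraries (log2 difference -2.81 ± 0.33, adjusted p = 1.05e-05, and -2.19 with adjusted p = 0.0602 as labelled).

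Mcm6, Pcdhga11 and Ddx4 were among the further falls. Mcm6, a subunit of the replicative helicase, had 208, 43.2, 54.6, 71.8 and 48.05 in 3xTg and 188, 225, 317 and 226 in WT libraries (log2 difference -2.12 ± 0.14, adjusted p = 1.77e-09, and -1.73 with adjusted p = 0.0729 as labelled). Pcdhga11, a clustered protocadherin of the gamma group whose exons resemble those of its neighbours, had 299, 75.6, 48.7, 77.6 and 84.6 in 3xTg and 373, 384, 292 and 403 in WT libraries (log2 difference -2.34 ± 0.15, adjusted p = 8.79e-10, and -1.93 with adjusted p = 0.101 as labelled). Ddx4, the germ-cell helicase Vasa, had 68.97, 5.40, 18.5, 25.9 and 24.99 in 3xTg and 64.5, 59.9, 60.2 and 80.4 in WT libraries (log2 difference -1.96 ± 0.31, adjusted p = 0.000395, and -1.55 with adjusted p = 0.0996 as labelled). In each of these, 3xTg_K_1 lay with WT and the other 3xTg libraries lay below every WT library. Pyroxd2 had 35.03, 21.6, 11.7, 14.1 and 18.3 in 3xTg and 81.0, 72.5, 75.7 and 51.7 in WT libraries (log2 difference -2.05 ± 0.23, adjusted p = 5.68e-06, and -1.83 with adjusted p = 0.0484 as labelled), and here 3xTg_K_1 stood between the groups. Tuba1c, an α-tubulin with close paralogs, had 159.8, 21.6, 1.95, 11.8 and 7.69 in 3xTg and 8.24, 159, 276 and 153 in WT libraries (log2 difference -3.26 ± 0.77, adjusted p = 0.0168, and -2.44 with adjusted p = 0.33 as labelled), and WT_K_1 was as low as the 3xTg libraries. Eps8l1, an actin regulator, had 9.85, 0, 3.90, 4.71 and 2.88 in 3xTg and 6.86, 106, 5.82 and 145 in WT libraries (log2 difference -3.23 ± 0.88, adjusted p = 0.0396, and -2.88 with adjusted p = 0.138 as labelled), so its difference came from WT_K_2 and WT_K_4. The adjusted p of Tuba1c reached 0.0691 when 3xTg_K_3, WT_K_2, WT_K_3 or WT_K_4 was left out, and that of Eps8l1 0.156 when 3xTg_K_2, 3xTg_K_3, 3xTg_K_5, WT_K_2 or WT_K_4 was.

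Several genes induced by interferon were higher in 3xTg mice on this diet. Type I interferons bind a surface receptor, after which a complex that holds STAT2 and IRF9 binds response elements of the form GAAANNGAAA and turns on antiviral genes, and interferons also raise MHC class I presentation. Of 17 interferon-response genes tested, 5 rose and none fell over 21 libraries, where 1.76% of all genes were called higher. Of the 17, 16 had a positive log2 difference, and the median was 0.52, beside -0.01 over all genes tested. As labelled none of the 17 was called, and the median was 0.36. Oasl2, a 2′-5′-oligoadenylate synthetase-like protein (chr5:114896936-114912234), had 43.8, 221, 129, 68.2 and 184 normalised counts in the 3xTg libraries and 53.5, 38.7, 48.5 and 24.1 in the WT libraries (log2 difference 1.77 ± 0.43, adjusted p = 0.0189, and 1.45 with adjusted p = 0.114 as labelled). 3xTg_K_1 was within the WT range, 3xTg_K_4 was just above it, and the other 3xTg libraries were higher. Bst2, or tetherin, which holds budding virus at the cell surface, had 6.57, 37.8, 21.4, 16.5 and 29.8 in 3xTg and 9.61, 5.80, 8.74 and 6.89 in WT libraries (log2 difference 1.60 ± 0.39, adjusted p = 0.0224, and 1.24 with adjusted p = 0.166 as labelled). Ifit3, which binds foreign RNA with its relatives, had 42.7, 135, 90.6, 81.2 and 125 in 3xTg and 67.3, 48.3, 64.1 and 33.3 in WT libraries (log2 difference 1.03 ± 0.25, adjusted p = 0.0231, and 0.77 with adjusted p = 0.213 as labelled). Stat2, the interferon-specific transcription factor, had 365, 583, 537, 525 and 572 in 3xTg and 389, 379.9, 467 and 404 in WT libraries (log2 difference 0.44 ± 0.08, adjusted p = 0.0022, and 0.32 with adjusted p = 0.197 as labelled). Stat2 moved least, between the tightest groups. The fifth gene, the ISG15 protease and feedback inhibitor Usp18, had 3.28, 54.02, 33.1, 17.6 and 29.8 in 3xTg and 13.7, 9.67, 5.82 and 8.04 in WT libraries (log2 difference 1.70 ± 0.44, adjusted p = 0.0289, and 1.12 with adjusted p = 0.335 as labelled), and it was picked out here after its values were seen.

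The summed level of the interferon list was 1479 normalised counts in 3xTg_K_1, 1857 to 2474 in 3xTg_K_2 to 3xTg_K_5 and 1487 to 1728 in the WT libraries. The calls of Oasl2, Bst2 and Ifit3 were lost when 3xTg_K_2, 3xTg_K_5 or WT_K_4 was left out, and those of Bst2 and Ifit3 also without WT_K_2, with adjusted p of up to 0.0793, 0.0817 and 0.0961 in that order of genes. Stat2 stayed called without any single library, at an adjusted p of up to 0.0119. 

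The MHC class I list, whose genes interferons also act on, held 2 calls. Of 14 genes of the MHC list tested, H2-T23 and B2m rose and none fell, where 1.76% of all genes were called higher. The list was mixed in sign, with 8 positive and 6 negative differences and a median of 0.11. H2-T23, which encodes Qa-1, a ligand of inhibitory receptors on natural killer cells (chr17:36029773-36032855), had 40.5, 97.2, 71.2, 61.2 and 145 in 3xTg and 53.5, 37.7, 28.2 and 22.96 in WT libraries (log2 difference 1.36 ± 0.30, adjusted p = 0.00963, and 1.14 with adjusted p = 0.079 as labelled). B2m, the light chain shared by all class I molecules (chr2:122147686-122153083), had 1004, 1486, 1415, 1234 and 1492 in 3xTg and 1115, 971, 961 and 783 in WT libraries (log2 difference 0.56 ± 0.11, adjusted p = 0.00277, and 0.47 with adjusted p = 0.0674 as labelled). H2-T22, which is not in that list, was called in both fits, with 0.86 ± 0.15, adjusted p = 0.00165 over 21 libraries. H2-T22 and H2-T23 belong to a family of similar genes, so the authors' counting may have split their reads.

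The windows of 250 bases before the start that RefSeq gives these genes are shown for the letters GAAANNGAAA, read on either strand, which are printed in capitals. They are RefSeq promoter windows on build GRCm38.p6, given 5′ to 3′ on the strand of the gene. Bst2 lies at chr8:71537473-71537722 (minus strand), Ifit3 at chr19:34583279-34583528 (plus), Stat2 at chr10:128270248-128270497 (plus), H2-T23 at chr17:36032702-36032951 (minus) and B2m at chr2:122147437-122147686 (plus). For H2-T23 the start in RefSeq lies downstream of that in GENCODE, so 154 bases of its window and the match in it lie inside the gene as GENCODE bounds it.
Bst2: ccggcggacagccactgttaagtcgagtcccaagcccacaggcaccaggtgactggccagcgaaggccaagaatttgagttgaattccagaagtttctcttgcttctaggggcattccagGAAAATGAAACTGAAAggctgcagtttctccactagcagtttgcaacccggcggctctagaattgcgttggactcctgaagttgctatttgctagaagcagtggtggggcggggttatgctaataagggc
Ifit3: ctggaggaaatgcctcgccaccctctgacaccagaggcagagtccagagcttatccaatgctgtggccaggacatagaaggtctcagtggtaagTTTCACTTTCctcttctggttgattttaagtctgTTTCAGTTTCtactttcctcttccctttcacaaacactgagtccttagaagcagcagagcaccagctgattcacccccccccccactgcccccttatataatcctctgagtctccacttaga
Stat2: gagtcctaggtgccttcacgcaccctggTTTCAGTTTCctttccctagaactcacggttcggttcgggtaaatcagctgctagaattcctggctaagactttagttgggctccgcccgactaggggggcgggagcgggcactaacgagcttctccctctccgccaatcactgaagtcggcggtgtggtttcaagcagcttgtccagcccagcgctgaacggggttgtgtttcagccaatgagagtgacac
H2-T23: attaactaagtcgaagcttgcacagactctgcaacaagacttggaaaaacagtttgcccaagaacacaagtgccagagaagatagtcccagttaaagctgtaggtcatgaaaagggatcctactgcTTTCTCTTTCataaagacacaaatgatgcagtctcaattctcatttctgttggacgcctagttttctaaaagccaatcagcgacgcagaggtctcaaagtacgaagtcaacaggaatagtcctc
B2m: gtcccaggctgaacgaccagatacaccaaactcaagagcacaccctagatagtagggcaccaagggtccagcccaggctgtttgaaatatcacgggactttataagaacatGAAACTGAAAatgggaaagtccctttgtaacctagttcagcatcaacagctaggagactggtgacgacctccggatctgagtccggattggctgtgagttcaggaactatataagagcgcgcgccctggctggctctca
The capitals in the Bst2 window cover 2 overlapping matches and those in the Ifit3 window 2 separate ones. Of all 32851 windows in the reference, 978 held the letters (2.98%). Of 14 interferon-list members with a window 7 held them, and so did 3 of the 4 called members with a window. Members were counted as genes, with a match in any window of the gene, while the 2.98% is a share of windows. The Oasl2 window held none, and Usp18 was not searched. Of 11 MHC-list members with a window 2 held them, which are the called H2-T23 and B2m. A match describes the sequence and does not show that a factor binds there.

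**Figure D3:**
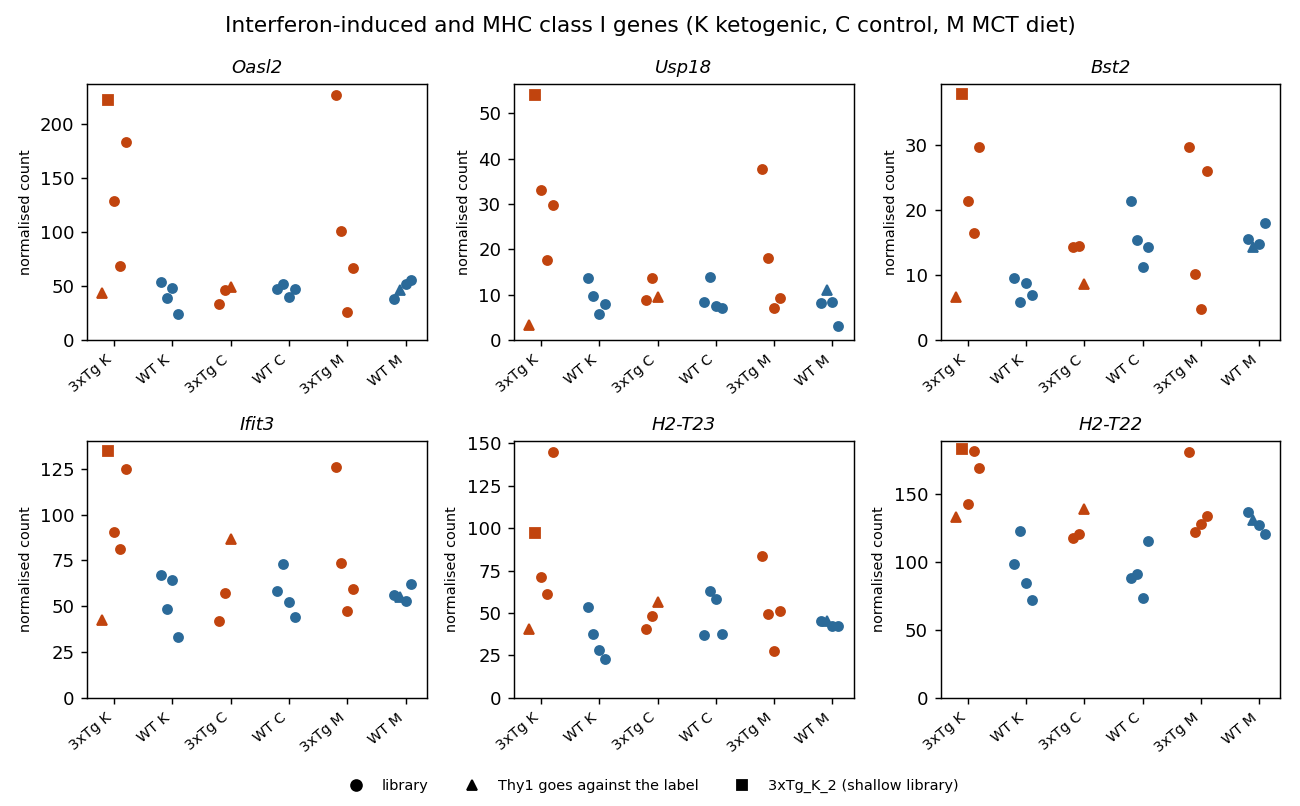
Normalised counts of 4 interferon-response genes and 2 MHC class I genes in every library of the 6 groups (K ketogenic, C control, M MCT), 3xTg left of WT for each diet. On the ketogenic diet 3xTg_K_2 to 3xTg_K_5 lie above the WT libraries in all 6 panels, and the circles and triangles of the control diet overlap in 5 of them.

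Microglia and complement lists held 4 calls between them over 21 libraries, where 1.76% of all genes were called higher and 1.85% lower. None of 13 genes of resting microglia was called (smallest adjusted p 0.142), and their sum was 6207 to 6882 normalised counts in the 5 3xTg libraries and 6071 to 6916 in WT. Of 17 genes that microglia express around amyloid plaques, none rose and 2 fell. Lyz2, or lysozyme, had 71.2, 70.2, 39.96, 56.5 and 51.9 in 3xTg and 172, 88.9, 106 and 90.7 in WT libraries (log2 difference -1.02 ± 0.25, adjusted p = 0.0201, and -0.94 with adjusted p = 0.102 as labelled). Gpnmb, a lysosomal glycoprotein, had 88.7, 75.6, 57.5, 68.2 and 63.4 in 3xTg and 91.98, 114, 123 and 114 in WT libraries (log2 difference -0.73 ± 0.15, adjusted p = 0.00478, and -0.65 with adjusted p = 0.202 as labelled). WT_K_1 held the highest Lyz2 value, and without it, or without 3xTg_K_3, the adjusted p of Lyz2 reached 0.0832. The call of Gpnmb was lost, at an adjusted p of 0.126, when 3xTg_K_1 was the sole library left out. In the complement list 2 of 15 genes rose and none fell. C4b, the component cleaved by the C1 complex, had 394, 621, 846, 778 and 833 in 3xTg and 395, 425, 456 and 439.7 in WT libraries (log2 difference 0.83 ± 0.15, adjusted p = 0.00149, and 0.64 with adjusted p = 0.133 as labelled). Cd59a, which blocks the membrane attack complex, had 59.1, 97.2, 115, 91.8 and 106 in 3xTg and 34.3, 43.5, 31.1 and 10.3 in WT libraries (log2 difference 1.91 ± 0.38, adjusted p = 0.00458, and 1.75 with adjusted p = 0.0591 as labelled). For C4b the library 3xTg_K_1 was below every WT library, and for Cd59a it was above them all.

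A few astrocyte genes were called, in both directions, where 3.62% of all genes were called over 21 libraries. Of 15 genes of reactive astrocytes, Gfap rose and Serpina3n fell. Gfap, the astrocyte intermediate filament, had 4261, 4991, 5231, 5688 and 5227 in 3xTg and 3823, 4424, 4897 and 4204 in WT libraries (log2 difference 0.29 ± 0.08, adjusted p = 0.0376, and 0.23 with adjusted p = 0.227 as labelled). Its groups nearly met, at 4991 in 3xTg_K_2 and 4897 in WT_K_3, and leaving out any ketogenic library except WT_K_3 ended its call, with adjusted p of up to 0.133. Among 13 genes of resting astrocytes 1 fell, the potassium channel Kcnj10, with 2059 to 2199.8 in 3xTg_K_2 to 3xTg_K_5, 2342 in 3xTg_K_1 and 2312 to 2857 in WT libraries (log2 difference -0.28 ± 0.07, adjusted p = 0.0175, and -0.25 with adjusted p = 0.102 as labelled), and this call was lost without WT_K_1 at an adjusted p of 0.0711.

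Some markers of dentate granule cells were lower in 3xTg. Of 11 such genes 4 fell and none rose over 21 libraries, where 1.85% of all genes were called lower. The median was -0.29 over 21 libraries and -0.29 as labelled, where Lct was the 1 called member. C1ql2, a secreted synaptic organiser of mossy fibre terminals, had 605, 324, 279.7, 346 and 235 in 3xTg and 677, 753, 762 and 706 in WT libraries (log2 difference -1.30 ± 0.13, adjusted p = 8.32e-07, and -1.09 with adjusted p = 0.0568 as labelled). 3xTg_K_1 stood between the groups. Lct had a log2 difference of -1.02 ± 0.14, adjusted p = 0.000103 over 21 libraries. Plk5, a kinase without a complete catalytic domain, had 105, 108, 94.5, 131 and 114 in 3xTg and 169, 129.5, 223 and 184 in WT libraries (log2 difference -0.63 ± 0.15, adjusted p = 0.0206, and -0.65 with adjusted p = 0.0568 as labelled). Stxbp6, or amisyn, a SNARE-binding regulator of exocytosis, had 2034, 1718, 1839, 1862 and 1757 in 3xTg and 1974, 2291, 2656 and 2294 in WT libraries (log2 difference -0.35 ± 0.09, adjusted p = 0.0281, and -0.32 with adjusted p = 0.0797 as labelled). The calls of Plk5 and Stxbp6 were lost when 3xTg_K_2, 3xTg_K_3, WT_K_3 or WT_K_4 was left out, and that of Stxbp6 also without 3xTg_K_5 or WT_K_2, with adjusted p of up to 0.0733 for Plk5 and 0.0926 for Stxbp6. The list summed to 9889.6, 9994, 10049, 9839 and 9395 normalised counts in the 3xTg libraries and 10032, 11410.2, 13456 and 12649 in the WT libraries, where WT_K_1 was at the 3xTg level. In tissue of mixed cells, fewer cells of a type and less RNA per cell cannot be told apart.

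Some pyramidal cell markers were called, in both directions, beside 3.62% of all genes over 21 libraries. Of 16 tested, the CA1 marker Wfs1, an endoplasmic reticulum protein, fell (1153 to 1441 in 3xTg_K_2 to 3xTg_K_5, 1689 in 3xTg_K_1 and 1533 to 2451 in WT, log2 difference -0.60 ± 0.12, adjusted p = 0.00337, and -0.52 with adjusted p = 0.0721 as labelled), as did the calcium-binding copine Cpne4 (log2 difference -0.35 ± 0.08, adjusted p = 0.0138, and -0.30 with adjusted p = 0.0793 as labelled). Spink8, a protease inhibitor of CA1 cells, rose, with 149, 232, 376, 399 and 336 in 3xTg and 115, 178, 129 and 171 in WT libraries (log2 difference 1.17 ± 0.18, adjusted p = 0.00031, and 0.94 with adjusted p = 0.174 as labelled). The call of Spink8 was lost, at an adjusted p of 0.0511, when 3xTg_K_1 was the sole library left out. None of 10 genes of immature neurons was called (smallest adjusted p 0.321).

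Transmitter genes changed at a few points, beside 3.62% of all genes called over 21 libraries. Gabra2, the α2 subunit of GABA-A receptors found at inhibitory synapses on pyramidal cells, had 2443, 5996, 6017, 6461 and 6517 normalised counts in the 3xTg libraries and 2431, 4239.7, 2528 and 2224 in the WT libraries (log2 difference 1.18 ± 0.18, adjusted p = 0.000365, and 0.91 with adjusted p = 0.175 as labelled). 3xTg_K_1 was at the WT level, and WT_K_2 was well above the other WT libraries but below 3xTg_K_2 to 3xTg_K_5. It was the 1 called gene of 11 subunits in the list. Of 13 interneuron genes 2 rose and 1 fell. The peptide gene Vip had 379.9, 556, 427, 458 and 478 in 3xTg and 373, 351, 326 and 364 in WT libraries (log2 difference 0.43 ± 0.10, adjusted p = 0.0135, and 0.37 with adjusted p = 0.102 as labelled), the adenosine deaminase Adarb2, a marker of interneurons from the caudal eminence, rose by 0.59 (adjusted p = 0.0291 and 0.395 as labelled), and neuropeptide Y (Npy) had 536, 373, 345, 448 and 382 in 3xTg and 594, 572, 624 and 538 in WT libraries (log2 difference -0.59 ± 0.13, adjusted p = 0.00913, and -0.50 with adjusted p = 0.118 as labelled). Leaving out 3xTg_K_2 ended the calls of Vip and Adarb2, and that of Adarb2 was also lost without 3xTg_K_3, 3xTg_K_5, WT_K_2 or WT_K_4. Over the libraries left out singly the adjusted p reached 0.0629 for Vip and 0.105 for Adarb2. None of 24 glutamate receptor genes was called (smallest adjusted p 0.0615), and 1 of 22 postsynaptic scaffold genes was, Camk2b, which fell by 0.23 (adjusted p = 0.0318, and up to 0.106 without any 1 library other than 3xTg_K_4). Of 20 immediate early genes, which neurons switch on when active, 16 had a negative difference and none was called (median -0.19, smallest adjusted p 0.0931).

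Of the genes of cholesterol synthesis, Hmgcs1, Cyp51, Nsdhl and Sc5d rose. The pathway turns acetyl-CoA into sterols, and most of the brain's cholesterol is made in place. Of 23 genes tested 4 rose and none fell over 21 libraries, where 1.76% of all genes were called higher. A positive difference was found in 19, and the median was 0.13 over 21 libraries and 0.10 as labelled. Hmgcs1, the synthase that supplies the pathway with HMG-CoA, had 4152, 5224, 4889.9, 5094 and 5136 in 3xTg and 4362, 4364, 3543 and 3668 in WT libraries (log2 difference 0.36 ± 0.07, adjusted p = 0.00629, and 0.30 with adjusted p = 0.0962 as labelled). Cyp51, the lanosterol demethylase, had 932, 1361, 1301, 1178 and 1264 in 3xTg and 839, 1130.0, 961 and 984 in WT libraries (log2 difference 0.39 ± 0.09, adjusted p = 0.0116, and 0.30 with adjusted p = 0.147 as labelled). Nsdhl, the next sterol dehydrogenase, rose by 0.30 (adjusted p = 0.0339 and 0.133 as labelled) and Sc5d by 0.25 (adjusted p = 0.0022). All 4 differences were below 1.5-fold. The call of Nsdhl was lost under edgeR and DESeq2 and without 6 of the 8 libraries left out singly, with adjusted p of up to 0.132.

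Of 14 genes that glucocorticoids induce, Nfkbia and Pdk4 rose over 21 libraries, where 1.76% of all genes were called higher. None was called as labelled. All 14 had a positive difference over 21 libraries (median 0.60, and 0.49 as labelled), and the list itself was not tested. Nfkbia, the inhibitor of NF-κB, had 349, 475, 488, 425 and 394 in 3xTg and 243, 265, 351 and 290.4 in WT libraries (log2 difference 0.64 ± 0.15, adjusted p = 0.0199, and 0.57 with adjusted p = 0.181 as labelled). Pdk4, which shuts pyruvate out of the citric acid cycle when fat is burned, had 267, 513, 724, 399 and 420.0 in 3xTg and 214, 295, 422 and 271 in WT libraries (log2 difference 0.77 ± 0.22, adjusted p = 0.0474, and 0.59 with adjusted p = 0.318 as labelled). The groups overlapped for Pdk4, where WT_K_3 exceeded 3xTg_K_1, 3xTg_K_4 and 3xTg_K_5. Both calls were lost when 3xTg_K_2, 3xTg_K_3, WT_K_1 or WT_K_2 was left out, and that of Pdk4 also without WT_K_4, with adjusted p of up to 0.0704 for Nfkbia and 0.151 for Pdk4. The list summed to 10575, 14769, 13788, 10763 and 11085 in the 3xTg libraries and 7024, 8503, 10634 and 10557 in the WT libraries.

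A few genes of energy metabolism were called between the strains on this diet, where 3.62% of all genes tested were called over 21 libraries. At that share few calls would be found in lists this short, so the counts do not set these genes apart. Of 11 genes of ketone metabolism and transport 1 fell, Slc16a1, a monocarboxylate transporter of brain capillaries and glia, with 1225, 691, 672, 943 and 984 in 3xTg and 1359, 1292, 1077 and 1066 in WT libraries (log2 difference -0.56 ± 0.12, adjusted p = 0.0115, and -0.44 with adjusted p = 0.184 as labelled). Its call was lost without 3xTg_K_2 or 3xTg_K_3, at an adjusted p of up to 0.0571. Of 31 genes of fatty acid uptake and oxidation 1 was called, Pdk4, and the median was -0.00. None was called among 25 genes of glycolysis (smallest adjusted p 0.205), 17 of insulin signalling (0.0771), 49 nuclear genes of oxidative phosphorylation (0.0814) or 8 of the mitochondrial genome (0.368). Of 13 glycogen genes, Stbd1 and the ubiquitin ligase malin, Nhlrc1, rose, Nhlrc1 by 0.38 (adjusted p = 0.028, and up to 0.112 without 3xTg_K_2, 3xTg_K_5, WT_K_3 or WT_K_4). Of 20 antioxidant genes, glutathione reductase Gsr and the transferase Gstm1 fell. Gsr had 545, 373, 341, 387 and 370.0 in 3xTg and 507, 498, 431 and 437 in WT libraries (log2 difference -0.35 ± 0.07, adjusted p = 0.00384, and -0.23 with adjusted p = 0.411 as labelled), and Gstm1 had 1986, 1631, 1774, 1603 and 1551 in 3xTg and 1933, 2057, 2121 and 2004 in WT libraries (log2 difference -0.31 ± 0.06, adjusted p = 0.0067, and -0.25 with adjusted p = 0.102 as labelled). The call of Gsr was lost, at an adjusted p of 0.119, when 3xTg_K_1 was the sole library left out. None of the clock, heat shock or endoplasmic reticulum stress genes was called.

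Among other cell types, Opalin of myelinating oligodendrocytes had 239.7, 54.02, 92.6, 174 and 94.2 in 3xTg and 275, 217, 260.2 and 144 in WT libraries (log2 difference -1.18 ± 0.27, adjusted p = 0.0152, and -0.92 with adjusted p = 0.236 as labelled) and was the 1 called gene of 14 in its list. Sox10, the transcription factor of the oligodendrocyte lineage, had 366, 286, 295, 353 and 288 in 3xTg and 426, 427, 455 and 405 in WT libraries (log2 difference -0.49 ± 0.11, adjusted p = 0.0117, and -0.44 with adjusted p = 0.0996 as labelled) and was 1 of 10 precursor genes. The Opalin groups overlapped, since WT_K_4 was below 3xTg_K_4, and the call was lost without 3xTg_K_2 or WT_K_1, at an adjusted p of up to 0.0691. None of 14 vascular, 7 choroid plexus or 10 ependymal genes was called, and 3.62% of all genes tested were. Tissue next to the hippocampus varied in amount: the choroid plexus list summed to 979.8, 762, 606, 634 and 718 normalised counts in the 3xTg libraries and 5343, 741, 814 and 634 in the WT libraries, with the transthyretin gene Ttr at 379.9 in 3xTg_K_1, 10.6 to 107 in the other 3xTg libraries and 3921 in WT_K_1. Collagen and meningeal genes summed to 4936, 5013, 3513, 3990.2 and 3853 in the 3xTg and 8819, 4439, 6428 and 4341 in the WT libraries, again highest in WT_K_1. The part of carried-over tissue in any result was not tested, and 396 genes were called over 21 libraries when WT_K_1 was left out as well. Col6a5, a collagen VI chain beside Col6a4, fell, with 78.8, 21.6, 14.6, 18.8 and 11.5 in 3xTg and 49.4, 65.7, 46.6 and 61.99 in WT libraries (log2 difference -1.71 ± 0.23, adjusted p = 7.52e-05, and -1.27 with adjusted p = 0.224 as labelled). Of 5 red blood cell genes 1 rose, the β-globin Hbb-bt, with 8.76, 59.4, 48.7, 72.9 and 71.1 in 3xTg and 28.8, 26.1, 24.3 and 27.6 in WT libraries (log2 difference 1.19 ± 0.30, adjusted p = 0.0248, and 0.66 with adjusted p = 0.496 as labelled). Its call was lost without 3xTg_K_2, 3xTg_K_4, 3xTg_K_5, WT_K_2, WT_K_3 or WT_K_4, at an adjusted p of up to 0.0638. The list of red blood cell genes summed to 131, 616, 445, 569 and 540.1 in the 3xTg and 316, 309, 354 and 344 in the WT libraries. Of 12 genes of striatum and neocortex 1 was called at the threshold, the opioid peptide gene Penk (fell by 0.42, adjusted p = 0.05, and up to 0.156 without any 1 library other than 3xTg_K_4).

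Of 75 ribosomal protein genes 2 rose and 1 fell, a share near the 3.62% called among all genes, and 59 had a negative difference (median -0.10). Beside Rpl34, Rpl29 had 145, 232, 282, 286 and 177 in 3xTg and 107, 132, 154 and 118 in WT libraries (log2 difference 0.91 ± 0.16, adjusted p = 0.00118, and 0.77 with adjusted p = 0.138 as labelled). Rplp0, of the ribosomal stalk, had 1217, 443, 385, 446 and 352 in 3xTg and 1015, 1264, 484 and 1137 in WT libraries (log2 difference -1.18 ± 0.24, adjusted p = 0.00591, and -0.86 with adjusted p = 0.259 as labelled), with WT_K_3 near the 3xTg level and 3xTg_K_1 at the WT level. All 3 have processed pseudogenes that could share reads. The call of Rplp0 was lost, at an adjusted p of 0.0518, when 3xTg_K_1 was the sole library left out. Among 19 genes that cut APP or clear amyloid 1 was called, the γ-secretase subunit Aph1b, with 759, 799, 866, 788 and 896 in 3xTg and 675, 693, 683 and 659 in WT libraries (log2 difference 0.30 ± 0.06, adjusted p = 0.00227, and 0.27 with adjusted p = 0.0568 as labelled).

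**Figure D4:**
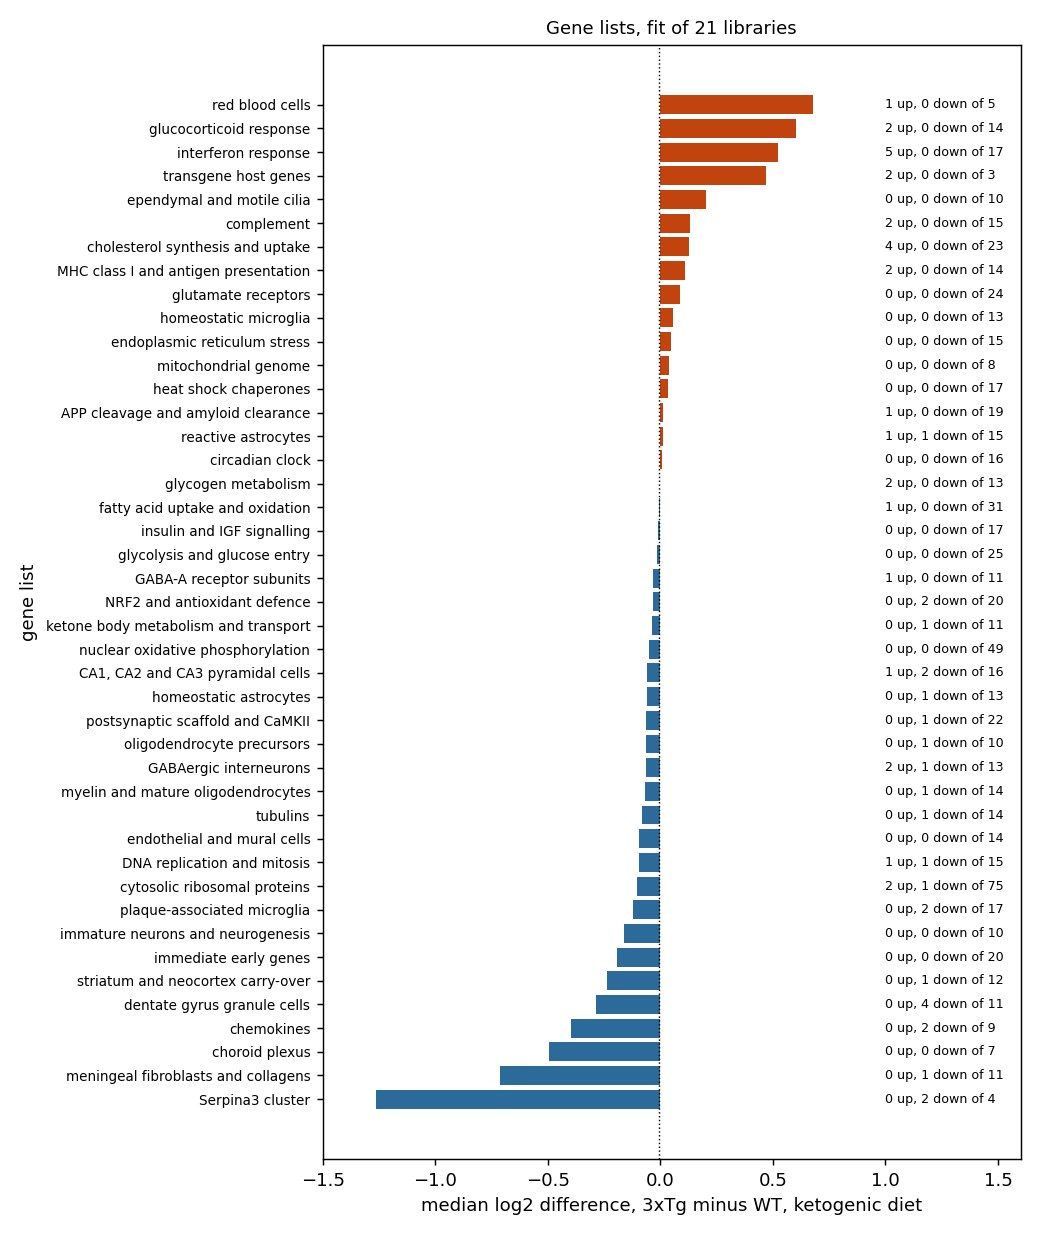
Median log2 difference, 3xTg minus WT on the ketogenic diet, over the tested members of each gene list in the fit of 21 libraries, with the number called higher and lower at the right and a dotted line at the median of all genes tested (-0.01). The interferon list has 5 of 17 genes up at a median of 0.52, and the Serpina3 list 2 of 4 down. Over all genes tested 1.76% were called higher and 1.85% lower.

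The strain difference was then read on the other diets, whose libraries are other mice and share no sample with the ketogenic contrast, although the spread was estimated jointly. Of the 511 genes called on the ketogenic diet, 472 had the same sign on the control diet (92.4%, against 61.3% of the 13615 uncalled genes) and 495 on the MCT diet (96.9%, against 66.2%). On the control diet 145 of the 511 were called, all in the same direction, among 246 genes called there (1.74%). On the MCT diet 173 were called, all in the same direction, among 250 (1.77%). All 3 diets called 112 of them. The median size of the difference over the 511 was 0.49 on the ketogenic diet, where they were chosen, 0.32 on the control diet and 0.33 on the MCT diet (log2). Lgr6, for instance, differed by 2.05 on the control and 2.05 on the MCT diet, Mcm6 by -2.41 and -2.37, Serpina3n by -1.64 and -2.15, C1ql2 by -1.31 and -1.54, and Gabra2 by 1.15 and 0.92, all called there. The glucocorticoid list had medians of 0.57 and 0.68 on those diets, and the cholesterol list 0.12 and 0.12. For the list of dentate granule cells, which holds C1ql2, the medians were -0.23 on the control and -0.06 on the MCT diet.

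For the called interferon and MHC genes, no difference between the ketogenic and another diet passed the test. Oasl2 had 33.1, 46.3 and 48.7 normalised counts in the 3xTg and 47.3, 51.8, 40.2 and 47.5 in the WT libraries on the control diet, and 227, 100.4, 26.2 and 66.98 in the 3xTg and 37.8, 46.4, 51.5 and 55.3 in the WT libraries on the MCT diet. The control-diet groups overlapped, and on the MCT diet 3 of 4 3xTg libraries were above the WT libraries. Its strain difference was -0.24 ± 0.52 on the control diet (adjusted p = 0.875) and 0.73 ± 0.46 on the MCT diet (adjusted p = 0.637). The ketogenic minus control difference of differences was 2.02 ± 0.67, with an unadjusted p of 0.00652 and an adjusted p of 0.748. For H2-T23 the strain difference was -0.10 ± 0.36 on the control and 0.19 ± 0.32 on the MCT diet, and for Bst2 -0.07 ± 0.48 and -0.17 ± 0.43. Stat2 differed by 0.28 ± 0.10 on the control diet (adjusted p = 0.173, unadjusted 0.00995) and by 0.19 ± 0.09 on the MCT diet (adjusted p = 0.423). Usp18 differed by 0.27 ± 0.53 and by 1.17 ± 0.47 on those diets, and Ifit3 by -0.19 ± 0.31 and 0.33 ± 0.27. The MHC genes H2-T22, with 0.39 ± 0.19 and 0.12 ± 0.17, and B2m, with 0.19 ± 0.13 and 0.09 ± 0.11, had positive differences on both, and none of these values was called. The median of the interferon list was 0.52 on the ketogenic, -0.19 on the control and 0.19 on the MCT diet.

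Over all genes, none had a strain difference on the ketogenic diet that differed from that on the control diet in either fit (smallest adjusted p 0.748 over 21 libraries and 0.724 as labelled). An unadjusted p under 0.05 was met by 931 genes over 21 libraries and by 946 as labelled, and edgeR and DESeq2 called 0 as well. The smallest p over 21 libraries belonged to the complement protease C1ra (2.40 ± 0.51), the mitochondrial ribosomal protein Mrpl36 (-0.55 ± 0.13), the Gα regulator Rgs22 (1.80 ± 0.42), Disc1 (1.88 ± 0.45) and the guanylate-binding protein Gbp7 (0.83 ± 0.20). Against the MCT diet no gene differed as labelled (349 at an unadjusted p under 0.05, edgeR 0, DESeq2 1), and 2 did over 21 libraries (0.0142%), Pla2g4e and Eif3j2 (edgeR 0, DESeq2 1).

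Both of these genes followed a pattern of their own. Pla2g4e, which makes N-acyl-phosphatidylethanolamines, precursors of anandamide (chr2:120166412-120245335), had 187, 32.4, 21.4, 55.3 and 35.6 normalised counts in the 3xTg libraries and 222, 213, 444 and 509.7 in the WT libraries on the ketogenic diet (log2 difference -3.19 ± 0.30, adjusted p = 4.21e-07, and -2.71 with adjusted p = 0.0484 as labelled). On the control diet it had 28.7, 32.7 and 409 in 3xTg libraries, the third of which goes against its label, and 249.6, 451, 206 and 199.8 in WT libraries. On the MCT diet it had 37.8, 28.2, 24.6 and 33.5 in 3xTg libraries and 39.4, 32.004, 21.04 and 34.2 in WT libraries. WT_C_2, WT_K_3 and WT_K_4 stood above the other WT libraries of those 2 diets, and all 4 MCT libraries labelled WT were as low as 3xTg, also the 3 whose Thy1 matched WT. Eif3j2 had 43.8, 5.40, 1.95, 11.8 and 4.80 in 3xTg and 42.6, 43.5, 97.1 and 101 in WT libraries on the ketogenic diet and 2.70, 1.69, 1.59 and 3.72 in 3xTg and 1.64, 0, 2.10 and 2.01 in WT libraries on the MCT diet. Its paralog Eif3j1, which lies in the same 5-Mb stretch of chromosome 2 as Pla2g4e and encodes the same subunit of initiation factor 3, ran the other way, with 91.96, 151, 153, 127 and 172 in 3xTg and 100.2, 90.9, 19.4 and 13.8 in WT libraries on the ketogenic diet (log2 difference 1.88 ± 0.45, adjusted p = 0.0178, and 1.74 with adjusted p = 0.102 as labelled) and 145, 145, 169 and 163 in the WT libraries on the MCT diet. Reads of the pair may have been split in counting, and the Eif3j1 call was lost without 3xTg_K_2, WT_K_3 or WT_K_4 (adjusted p of up to 0.0771). The ketogenic minus MCT difference of differences was -3.20 ± 0.45 for Pla2g4e (adjusted p = 0.00443) and -3.63 ± 0.58 for Eif3j2 (adjusted p = 0.0195), and WT_K_3 and WT_K_4, the libraries with the lowest Eif3j1, had the highest Pla2g4e and Eif3j2.

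**Figure D5:**
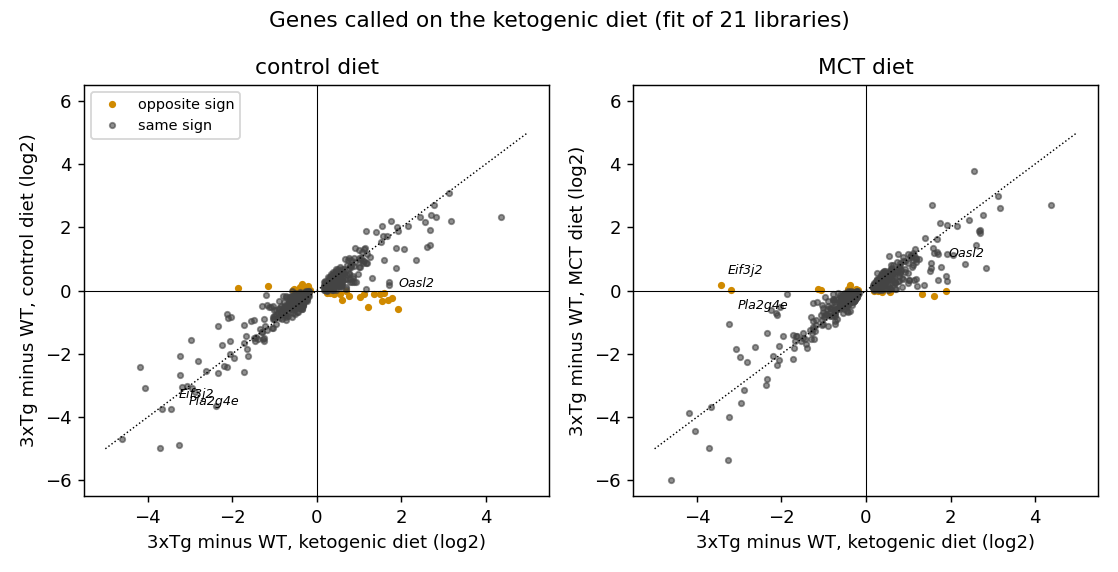
Log2 difference, 3xTg minus WT, of the 511 genes called on the ketogenic diet (horizontal axis) against the same difference on the control and MCT diets (vertical axes), with 1 point per gene and a dotted line of equality. Of the points 472 have the same sign on the control diet and 495 on the MCT diet, and Pla2g4e and Eif3j2 lie near 0 on the MCT diet.

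The called genes were unevenly placed along the genome. Over 21 libraries 3.62% of tested genes were called, with 9.82% on chromosome 13, 7.86% on chromosome 3, 5.59% on chromosome 9 and 5.34% on chromosome 14, and 1.59% on chromosome 11. In a 5-Mb stretch of chromosome 3 (125000001 to 130000000, GRCm38) 8 of 19 tested genes were called (42.1%), among them Ndst4 and Neurog2, and the next stretch held Etnppl and Rpl34 among 5 of 20. On chromosome 13 between 65000001 and 70000000, 13 of 39 were called (33.3%), most of them zinc finger genes such as Zfp595 and Rsl1, whose sequences resemble each other. Between 115000001 and 120000000 on the same chromosome 5 of 14 were called, which include Ccl28 and Hmgcs1. The stretch of chromosome 2 from 120000001 to 125000000 held Pla2g4e, Eif3j1 and B2m among 8 called of 49 tested. On chromosome 9 Thy1 and Sc5d shared a stretch with 6 called of 45, and Col6a4, Col6a5, Rpl29 and Spink8 shared another with 13 of 104. Neighbouring genes are not independent, and these counts are a description with no test.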

How the data were processed

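Messenger RNA of 24 hippocampi was sequenced as poly(A) libraries. Per the submitters' processing notes, reads were handled with Trimmomatic and STAR on GRCm38. Which gene counter and scaling tool were used is not given in the sources used here. Signal values, in the form of normalised read counts, were deposited for 21793 genes in 24 libraries. All columns mapped to samples. In 100% of values per library the signal was a whole multiple of 1 step, within 0.01 reads, so whole reads were recovered. Of the symbols, 21556 matched 1 gene of GENCODE M21, 27 several and 210 none, 26 names had been altered to dates, and 3695 genes were at 0 throughout. Reads per library ranged from 2.65 to 25.8 M. No 2 ketogenic libraries agreed within sampling noise (chi-square per degree of freedom at least 2.04).

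Genes with at least 10 normalised counts in at least 3 libraries were tested with limma 3.58.1 in R 4.3.3 on log2(value + 1), with 6 group means, a trended prior and Benjamini-Hochberg adjustment. Adding 1 understates changes of low genes. Both fits, of 24 and 21 libraries, use the authors' scaling. Each library is 1 mouse, and the labels give no batch. Errors are limma's standard errors of the log2 difference, from a spread between mice estimated jointly over the 6 groups. Read counts served edgeR 4.0.16 and DESeq2 1.42.0 as alternatives. The procedure was tested on simulated data.

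The named genes are the 12 largest called rises and falls of each fit with a mean of at least 32, leaving out predicted genes, up to 4 called members of each of 43 gene lists (or 2 at most, given as values, if no member was), Thy1, App and Mapt, and up to 5 genes per interaction. The comparison and the lists were chosen with earlier results of these data known, and 2 genes that the rule or lists name are not reported here. Alternatives changed the pseudocount, filter, scaling, tool, libraries and replicate block.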

Additional observations from a re-analysis of the deposited data

Results flagged for a closer look

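Among 222 groups of 4 or 5 ketogenic libraries (111 named genes), 19 held a library far from the rest of its group. Chance flags about 1 in 20 groups, but that rate is no measure for 3xTg_K_1, since 82 of the genes were called in the fit that left it out and Thy1 chose it. In 17 of the 19 the library was 3xTg_K_1, whose Thy1 goes against its label. It had the lowest value of its group for Thy1 (8112 normalised counts), Gabra2 (2443), Hmgcs1 (4152), Adarb2 (479.5), Stat2 (364.5), Abcc9 (98.52), Lgr6 (66.78), Rpl34 (64.59), Capza1 (51.45), Stbd1 (19.7), Hbb-bt (8.758) and Col6a4 (2.189). It had the highest for Rplp0 (1217), Gsr (545.2), Ccl27a (233.2), Tagap (106.2) and Ccl28 (49.26). For Hbb-bt its 8.758 lay below the WT libraries too, at 24.3 to 28.8, and for Col6a4 its 2.189 was beside the lowest WT value of 2.75.

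Among WT libraries, WT_K_1 had 126.3 normalised counts for Blnk, against 134.3 to 135.9 in the others, and WT_K_3 had 34.95 for Serpina3m, against 68.63 to 76.88.

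The strain difference on the ketogenic diet minus that on the MCT diet was -3.2 (log2) for Pla2g4e, adjusted p = 0.00443, and -3.63 for Eif3j2, adjusted p = 0.0195, in limma over 21 libraries. Pla2g4e was lower in 3xTg than in every WT library on the ketogenic diet, and on the MCT diet the 2 strains were level.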

How the results depend on the processing

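As labelled, 22 genes were called, 110 with library weights, 5 with edgeR, 150 with DESeq2, and 0 to 325 with 1 library left out. Without the shallow library and those against their labels 305 were called, 275 of them among the 511. The 511 became 320 with the compared groups fitted alone, 325 when only 3xTg_K_1 was left out, 305 without 3xTg_K_2, and 305 to 497 with 1 library left out. Libraries of the same replicate number had correlations of deviations of 0.133, -0.0185, 0.186 and -0.0208. Those of unlike number had -0.198 to 0.14. These values overlap and do not settle whether replicate numbers pair the libraries. With the replicate block 9 genes were called as labelled and 466 over 21 libraries. In that fit 3xTg_K_5, whose number no WT library shares, carries no weight.

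The comparison of the strain difference with the control diet stayed at 0 under every alternative. Against the MCT diet, 0 as labelled became 1 with DESeq2 and 2 without the shallow library and those against their labels. The 2 over 21 libraries became 0 with edgeR, 1 with DESeq2, the filter at a mean of 50, quantile normalisation, the compared groups alone or the replicate block, and 1 to 2 with 1 library left out.

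Of 20 named genes called as labelled, none kept its call under every alternative. Of 82 called over 21 libraries, 54 did. No called gene changed sign. Spag16, not called, was -0.69 as labelled, 0.142 with edgeR, 0.107 with DESeq2 and -1.13 to 0.0476 with 1 library left out, highest without 3xTg_K replicate 2. The cause was not tested. Depth limits genes under about 16.2 normalised counts in 3xTg_K_2.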

Other observations

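A few genes outside the lists had strain differences on the ketogenic diet that were not seen at that size on the others, although no test of the difference between diets passed after adjustment. Disc1, a scaffold protein of neurons, had 7.66, 43.2, 22.4, 16.5 and 22.1 normalised counts in 3xTg libraries and 8.24, 7.73, 11.6 and 4.59 in WT libraries (log2 difference 1.55 ± 0.29, adjusted p = 0.0022, and 1.24 with adjusted p = 0.079 as labelled), and its strain difference was -0.33 on the control and 0.71 on the MCT diet. Itgbl1, an integrin-like secreted protein, had 177, 189, 195, 189 and 159.5 in 3xTg and 117, 159, 72.8 and 97.6 in WT libraries (log2 difference 0.76 ± 0.17, adjusted p = 0.00983, and 0.75 with adjusted p = 0.0559 as labelled), against -0.16 and 0.29 on those diets. Here 3xTg_K_1 lay with the other 3xTg libraries. Cfap44, a protein of motile cilia, had 142, 135, 156, 146 and 161 in 3xTg and 85.1, 94.7, 131 and 90.7 in WT libraries (log2 difference 0.59 ± 0.16, adjusted p = 0.0429, and 0.57 with adjusted p = 0.0732 as labelled), against -0.31 and 0.05. Mrpl36 had 248, 194, 219, 204 and 191 in 3xTg and 239, 271, 269 and 256 in WT libraries (log2 difference -0.35 ± 0.08, adjusted p = 0.0137, and -0.29 with adjusted p = 0.0984 as labelled), against 0.20 and -0.03. These genes were picked by their p in the comparison of diets, so their values describe and do not test it.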
